A study of Rattus norvegicus with 18 samples.

Results

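A set of 9 genes of low read number in rat cervical dorsal root ganglia (DRG), namely *Tgm1*, *Crisp1*, *Arg1*, *Csrp3*, *Padi3*, *Cxcl14*, *Loxl4*, *Plxdc1* and *Ly6g6e*, is described here across 3 groups of rats. They are 9 of the 15075 RefSeq identifiers in the authors' count table, and they were chosen because earlier results of the same data showed them lower in bPYX+GFP rats than in naïve rats, bPYX+NT3 rats or both. The levels of these genes in bPYX+GFP rats against the other groups are therefore a description with no test. What the choice did not use directly, and what is tested here, is the comparison of bPYX+NT3 with naïve rats and whether the genes rose and fell together between rats of one group.

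The ganglia of spinal levels C6 to C8 gave poly(A) RNA for sequencing in 18 Lister Hooded rats, with the DRG of the treated side pooled within each rat and not between rats. The 6 naïve rats (rats 41, 42, 43, 44, 45 and 49) were unoperated. The 6 bPYX+GFP rats (rats 5, 15, 18, 21, 52 and 57) and the 6 bPYX+NT3 rats (rats 2, 11, 17, 23, 39 and 40) had bilateral pyramidotomy, a cut of both corticospinal tracts in the medullary pyramids. After 24 h, forelimb flexor muscles on one side received an adeno-associated virus of serotype 1 that carried, under the CMV promoter, EGFP in the first group or human neurotrophin-3 (NT3) in the second. The injured groups' ganglia were taken 10 weeks after surgery. No group had pyramidotomy without virus or virus without pyramidotomy, so the injury, the vector and EGFP cannot be told apart in bPYX+GFP rats, and the study's methods describe behavioural, neurophysiological and nerve tracing procedures in the treated rats before tissue was taken.

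Dorsal root ganglia hold the cell bodies of sensory neurons together with satellite glia, Schwann cells, macrophages, fibroblasts and vessels. When a sensory neuron's peripheral axon is cut, the neuron switches on a set of genes that includes the transcription factor *Atf3*, the small proline-rich protein *Sprr1a* and the neuropeptide galanin (*Gal*), and this set is known in the field as axotomy or regeneration-associated genes. Several of the 9 genes are better known elsewhere: *Tgm1* cross-links proteins of the epidermal cornified envelope, *Padi3* turns arginine into citrulline in proteins of the hair follicle, *Crisp1* is a cysteine-rich secretory protein of the epididymis, *Csrp3* is the muscle LIM protein and *Arg1* is the arginase that splits arginine into ornithine and urea. *Cxcl14* is a secreted chemokine, *Loxl4* a lysyl oxidase of the extracellular matrix, *Plxdc1* a membrane protein with a plexin domain and *Ly6g6e* a member of the Ly6 family of surface proteins.

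Each rat had between 10057787 and 16002410 reads on genes, with a mean of 11722349 in bPYX+GFP, 13257163.7 in naïve and 13444505.3 in bPYX+NT3 rats, and the share of reads on no annotated feature from 30.8% to 34.6%. All values below are read counts scaled to a common library size by edgeR's TMM factors, called normalised read counts, and group differences are log2 fold changes from edgeR with their standard error (SE). The totals behind them were small: *Crisp1* had 2217 reads over the 18 rats, *Csrp3* 1609, *Arg1* 1330, *Tgm1* 1008, *Plxdc1* 821, *Loxl4* 440, *Cxcl14* 350, *Ly6g6e* 296 and *Padi3* 237. All 9 genes passed the filter on low counts over the 18 rats (over 10 reads in 6 rats or more). *Crisp1* is the study's name for NM_022859, which the RefSeq table used here lists as Crisp3 with Crisp1 as a synonym, and the identifier now called Crisp1 had 1 read in total. Markers of the labelled tissue were high: the summed level of a list of 9 neuron markers ranged from 3019 to 5563 on the CPM scale, which divides each count by the rat's scaled library size. Of that list *Ntrk3* had no read or no entry. Of 16 keratinocyte markers, 7 had no entry under their symbol, so their level is not known. Of those with an entry, 8 had at most 14 reads in a rat, and only *Perp* had more. *Col1a2* of the fibroblast list had no entry either, so a missing entry does not show a level of 0. Skeletal muscle markers were low but present, with a summed level of 1.71 to 15.1 CPM, and the highest, *Acta1* and *Myh1*, reached 48.2 and 41.3 normalised reads, in a bPYX+GFP and a bPYX+NT3 rat. The r of *Csrp3* with the mean of the 2 muscle markers that passed the filter was 0.42 (permutation adjusted p = 0.288). In pooled ganglia, fewer cells of a type and less RNA per cell cannot be told apart.

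RefSeq promoters on the build GRCr8 matched 5 of the 9 genes (*Tgm1*, *Crisp1*, *Padi3*, *Cxcl14* and *Loxl4*) and not *Arg1*, *Csrp3*, *Plxdc1* or *Ly6g6e*. The 250 bases before the annotated start are shown for 3 genes that varied together between rats (*Tgm1*, *Crisp1* and *Padi3*) and for *Cxcl14*, whose correlation with them did not pass the test given below. Capitals mark a CCAAT box (CCAAT or its reverse complement ATTGG), a GC box (GGGCGG or CCGCCC) or an AP-1 site (TGANTCA, the same on both strands). The stretches lie at chr15:33174268-33174517 on the minus strand for *Tgm1*, chr9:27928341-27928590 on the plus strand for *Crisp1*, chr5:158400194-158400443 on the minus strand for *Padi3* and chr17:8322900-8323149 on the plus strand for *Cxcl14*.
Tgm1: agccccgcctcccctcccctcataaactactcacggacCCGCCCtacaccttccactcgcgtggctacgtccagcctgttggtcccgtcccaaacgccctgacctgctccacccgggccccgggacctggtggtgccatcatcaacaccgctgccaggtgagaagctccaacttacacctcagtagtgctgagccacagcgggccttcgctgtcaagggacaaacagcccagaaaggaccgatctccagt
Crisp1: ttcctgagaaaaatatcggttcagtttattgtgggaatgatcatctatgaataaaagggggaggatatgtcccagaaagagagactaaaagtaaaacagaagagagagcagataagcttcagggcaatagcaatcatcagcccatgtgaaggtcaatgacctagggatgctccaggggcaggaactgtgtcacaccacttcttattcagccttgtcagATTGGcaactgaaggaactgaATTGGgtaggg
Padi3: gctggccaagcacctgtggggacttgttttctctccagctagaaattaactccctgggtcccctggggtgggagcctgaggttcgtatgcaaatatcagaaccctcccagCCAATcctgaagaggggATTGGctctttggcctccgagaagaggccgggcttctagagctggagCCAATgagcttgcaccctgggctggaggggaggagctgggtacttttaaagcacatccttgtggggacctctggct
Cxcl14: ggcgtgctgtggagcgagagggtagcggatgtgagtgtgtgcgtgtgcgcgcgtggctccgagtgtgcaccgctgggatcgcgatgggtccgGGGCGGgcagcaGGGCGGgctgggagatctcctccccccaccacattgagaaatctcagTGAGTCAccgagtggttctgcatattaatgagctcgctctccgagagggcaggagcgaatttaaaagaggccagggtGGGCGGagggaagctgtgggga

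Over the whole promoter window, from 250 bases before to 50 after the start, a CCAAT box stood in *Tgm1*, *Crisp1*, *Padi3* and *Loxl4*, which is 4 of 5, and in 37.5% of all 33469 promoters of the same length. In *Tgm1* both CCAAT boxes lay after the start, in *Crisp1* they began 32 and 11 bases before it and in *Padi3* the nearest began 76 bases before it. A GC box stood in *Tgm1*, *Cxcl14* and *Loxl4* (33.1% of all promoters). The AP-1 letters were found in *Cxcl14* alone (7.33% of all promoters), beginning 99 bases before the start. The cAMP response element TGACGTCA (1.83% of all promoters) and the TATA box letters TATAAA (14.2%) were in none of the 5, which says only that these letters are not in these windows.

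*Tgm1*, the epidermal transglutaminase, had the widest range of the enzymes. In naïve rats its normalised read count was 3.32 in the lowest rat, 53.5 at the median and 135 in the highest. In bPYX+GFP rats it was 7.29, 23.9 and 55.2, and in bPYX+NT3 rats 14.8, 38.5 and 167. The groups overlapped throughout: rat 49, a naïve rat, was the lowest of all 18 with 3 reads, and only rat 21 of the bPYX+GFP rats reached the naïve median. The log2 fold change of *Tgm1* was -1.21 ± 0.55 in bPYX+GFP against naïve rats and 1.44 ± 0.62 in bPYX+NT3 against bPYX+GFP rats. Without naïve rat 42 the first value was -0.77, and without bPYX+NT3 rat 11 the second was 0.94.

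*Arg1*, the arginase whose product ornithine feeds polyamine synthesis, was steadier in bPYX+GFP rats than in the other groups. It had 23.2, 74.0 and 149 normalised reads in the lowest, median and highest naïve rats. The same values were 29.2, 39.4 and 53.3 in bPYX+GFP rats and 54.1, 59.4 and 187 in bPYX+NT3 rats. Every bPYX+GFP rat was below every bPYX+NT3 rat, while naïve rat 49 was below them all. The log2 fold change was -1.01 ± 0.35 in bPYX+GFP against naïve rats and 1.10 ± 0.32 in bPYX+NT3 against bPYX+GFP rats.

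*Padi3*, the peptidylarginine deiminase, was the scarcest, with 1 to 34 reads per rat. Its normalised read count was 1.11, 9.91 and 26.2 in the lowest, median and highest naïve rats. It was 3.99, 7.73 and 9.82 in bPYX+GFP rats and 10.8, 15.3 and 30.5 in bPYX+NT3 rats. The bPYX+NT3 rats again lay above all bPYX+GFP rats, by a log2 fold change of 1.25 ± 0.32. *Padi3* passed the filter on counts for that comparison through bPYX+NT3 rats and, of the bPYX+GFP rats, only rat 57 (11 reads). *Padi3* had too few reads for the fit of bPYX+GFP against naïve rats.

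*Crisp1*, the secreted protein, had the largest spread within naïve rats. The lowest, median and highest naïve rats had 4.43, 128 and 287 normalised reads, a 64.8-fold range. The bPYX+GFP rats had 13.4, 62.6 and 108, and the bPYX+NT3 rats 50.2, 87.0 and 365. All 6 bPYX+GFP rats were below the naïve median, and rat 49 was again the lowest of the 18. The log2 fold change was -1.28 ± 0.60 in bPYX+GFP against naïve rats and 1.20 ± 0.52 in bPYX+NT3 against bPYX+GFP rats, the latter 0.65 without bPYX+NT3 rat 17.

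*Csrp3*, which in muscle links the actin cytoskeleton to the sarcomere's Z-disc, had 3.32, 82.4 and 177 normalised reads in the lowest, median and highest naïve rats. It had 17.0, 41.4 and 71.4 in bPYX+GFP rats and 37.1, 87.8 and 255 in bPYX+NT3 rats. All 6 bPYX+GFP rats were below the median of either other group, and the ranges overlapped. The log2 fold change was -0.93 ± 0.55 in bPYX+GFP against naïve rats (-0.54 without naïve rat 42) and 1.53 ± 0.49 in bPYX+NT3 against bPYX+GFP rats.

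The remaining 4 genes had narrower ranges in naïve rats. *Cxcl14*, the chemokine, had 10.2, 20.02 and 30.0 normalised reads in the lowest, median and highest naïve rats. It had 8.89, 11.9 and 17.0 in bPYX+GFP rats and 4.78, 23.4 and 44.2 in bPYX+NT3 rats, whose rat 23 was the lowest of all 18 with 4 reads. Its log2 fold change was -0.71 ± 0.27 in bPYX+GFP against naïve rats and 1.02 ± 0.37 in bPYX+NT3 against bPYX+GFP rats.

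*Loxl4*, which cross-links collagen and elastin, had 20.4, 23.3 and 32.5 normalised reads in naïve rats, 14.6, 17.7 and 20.5 in bPYX+GFP rats and 16.7, 29.2 and 43.1 in bPYX+NT3 rats. In all, 5 of 6 bPYX+GFP rats were below the lowest naïve rat, and the log2 fold changes were -0.51 ± 0.18 in bPYX+GFP against naïve rats and 0.72 ± 0.21 in bPYX+NT3 against bPYX+GFP rats. *Plxdc1* had 32.4, 44.7 and 71.6 normalised reads in naïve rats, 22.8, 34.4 and 45.2 in bPYX+GFP rats and 41.5, 50.6 and 61.0 in bPYX+NT3 rats. For *Plxdc1*, 4 of 6 bPYX+GFP rats were below the lowest bPYX+NT3 rat, and its log2 fold changes in the same order were -0.49 ± 0.21 and 0.56 ± 0.19.

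*Ly6g6e* had 13.1, 16.8 and 25.9 normalised reads in the lowest, median and highest naïve rats, 6.25, 10.3 and 18.6 in bPYX+GFP rats and 11.8, 19.3 and 22.6 in bPYX+NT3 rats. For *Ly6g6e*, bPYX+GFP rats 15 and 18 lay inside the naïve range and the other 4 below it. Its log2 fold change was -0.73 ± 0.29 in bPYX+GFP against naïve rats and 0.70 ± 0.28 in bPYX+NT3 against bPYX+GFP rats.

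**Figure D1:**
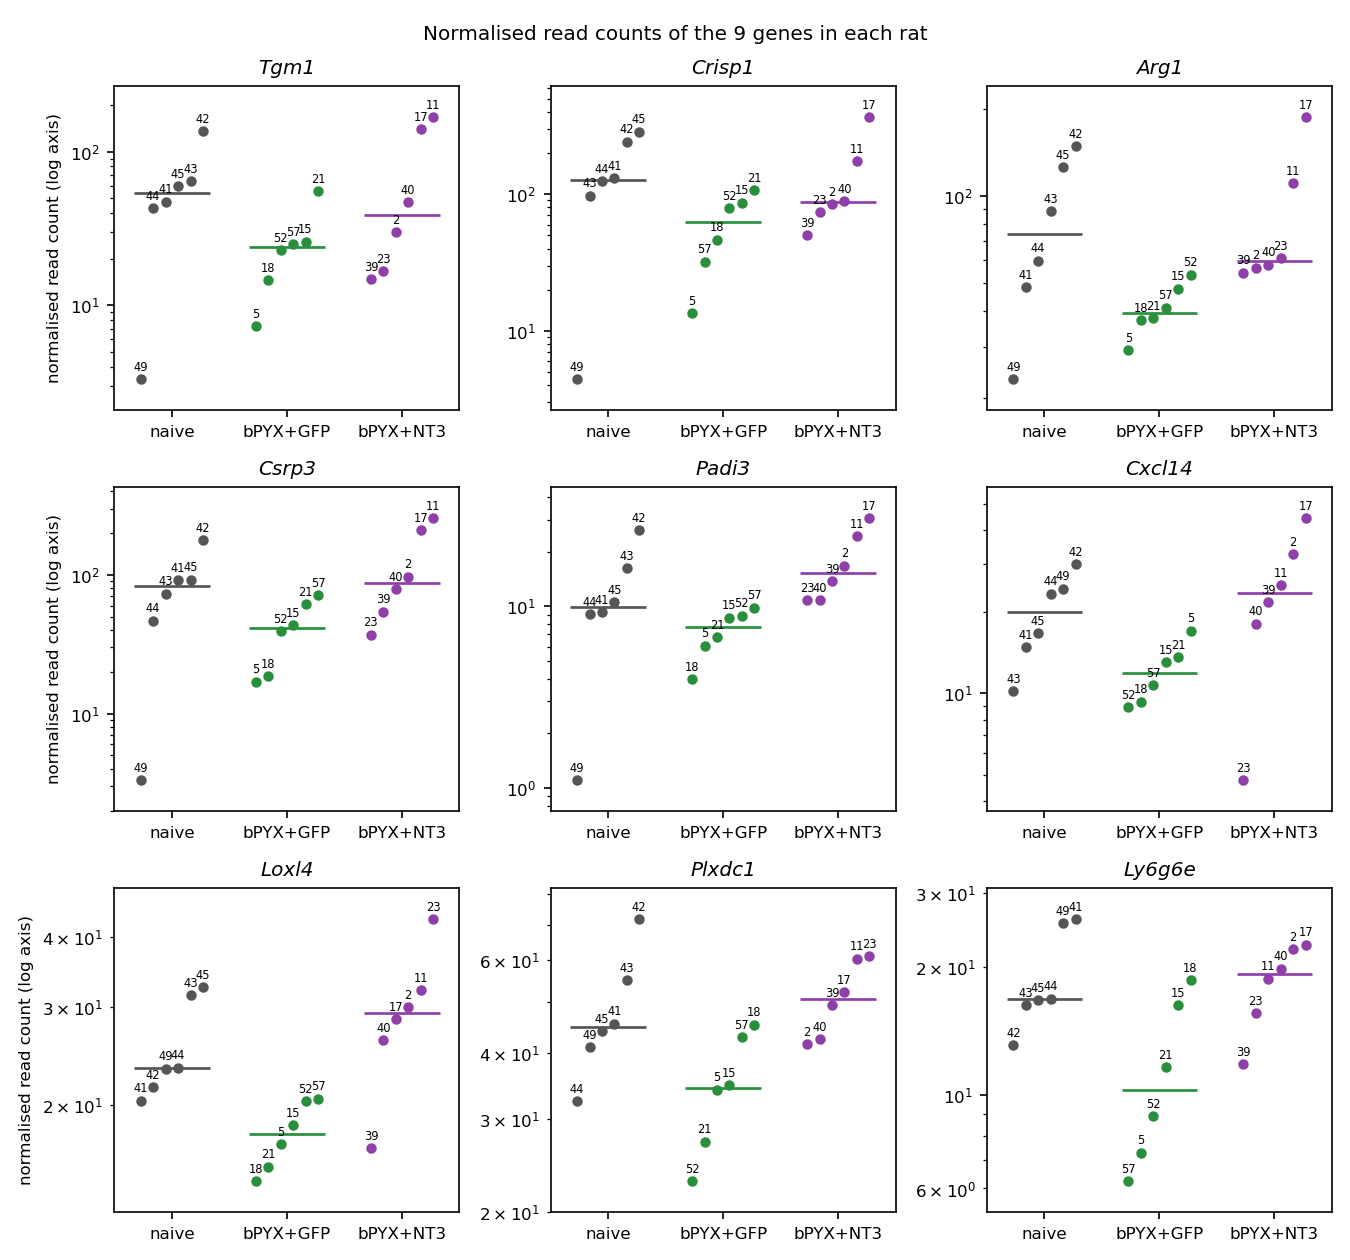
Normalised read count (log axis, scale differs by gene) of the 9 genes in each of the 18 rats, labelled by rat number, in naïve (grey), bPYX+GFP (green) and bPYX+NT3 rats (purple), with the median of each group as a line. Rat 49 is far below the other naïve rats for the first 5 genes and inside the naïve range for the last 4, and the groups overlap in all panels except bPYX+NT3 against bPYX+GFP for *Arg1* and *Padi3*.

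Because the genes were chosen on bPYX+GFP rats, counts over them in those comparisons carry no evidence. Of the 8 genes that could be fitted, 7 were lower in bPYX+GFP than in naïve rats at an unadjusted p under 0.05 (edgeR quasi-likelihood test), where 2.52% of 11601 genes were, and *Csrp3* was not. That number was 4 of 8 in 1 fit over the 3 groups and 5 of 8 with library size alone, and with 1 rat left out *Tgm1* passed in 3 of 12 fits and *Crisp1* in 2 of 12. All 9 were higher in bPYX+NT3 than in bPYX+GFP rats at that threshold, where 1.08% of 11623 genes were. *Padi3* entered that comparison mainly through its high group, so its place here and among the ranges below was partly set by the filter. Scaling by library size alone gave 167 higher among 208 genes past that threshold in the latter comparison, where TMM gave 125 among 201. No gene of the table passed an adjusted p under 0.05 in either comparison by this test, and the lowest adjusted p of the 9 genes was 0.851. By edgeR's likelihood ratio test 13 genes and by DESeq2 16 genes passed in bPYX+GFP against naïve rats, with none of the 9 among them (some of which DESeq2 gives no adjusted p), and 0 passed by either in bPYX+NT3 against bPYX+GFP rats. The ranges of bPYX+NT3 and bPYX+GFP rats did not overlap for 2 of the 9 (*Arg1* and *Padi3*), and lay apart in that direction for 0.0602% of all genes. The ranges of bPYX+GFP and naïve rats overlapped for all 9, and lay apart in the same direction for 0.198% of all genes. All of this holds for rats grouped by the numbers in the table's heading. Under the recorded titles of the files deposited per rat, 8 of the 9 genes turned direction in bPYX+NT3 against bPYX+GFP rats, with log2 fold changes from -0.60 to 0.11. The study itself reported *Tgm1*, *Crisp1*, *Arg1*, *Cxcl14*, *Loxl4*, *Plxdc1* and *Ly6g6e* as lower in bPYX+GFP than in naïve rats and higher with NT3. Those are the directions found with the table's heading, and the study's log2 fold changes were nearly the same in size.

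The comparison of bPYX+NT3 with naïve rats was not used to choose the genes, though it shares its rats with those that were. Genes picked as lower in bPYX+GFP rats than in both other groups tend to be alike in those groups. A lack of difference here was thus partly favoured by the choice. None of the 9 genes differed at an unadjusted p under 0.05 (edgeR quasi-likelihood test), where 6.01% of 11693 genes did and 0 passed after adjustment by that test, its likelihood ratio test or DESeq2. The log2 fold changes lay between -0.09 and 0.58 with a median of 0.20, against 0.00 over all genes, and 7 were above 0. The bPYX+NT3 rats had 0.22 ± 0.65 (SE) for *Tgm1*, -0.09 ± 0.60 for *Crisp1*, 0.08 ± 0.42 for *Arg1*, 0.58 ± 0.58 for *Csrp3* and 0.52 ± 0.44 for *Padi3*. These errors leave wide intervals: the 95% interval of the fold ran from 0.425 to 3.21 for *Tgm1*, from 0.371 to 2.37 for *Crisp1* and from 0.614 to 3.63 for *Csrp3*.

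The other 4 genes were measured more tightly in the same comparison. The log2 fold change of bPYX+NT3 against naïve rats was 0.30 ± 0.38 for *Cxcl14*, 0.20 ± 0.22 for *Loxl4*, 0.07 ± 0.19 for *Plxdc1* and -0.04 ± 0.22 for *Ly6g6e*. The 95% interval of the fold ran from 0.825 to 1.60 for *Loxl4*, from 0.786 to 1.40 for *Plxdc1* and from 0.691 to 1.38 for *Ly6g6e*. The unadjusted p of the 9 genes was 0.258 or higher, and without naïve rat 42 that of *Padi3* was 0.0490.

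**Figure D2:**
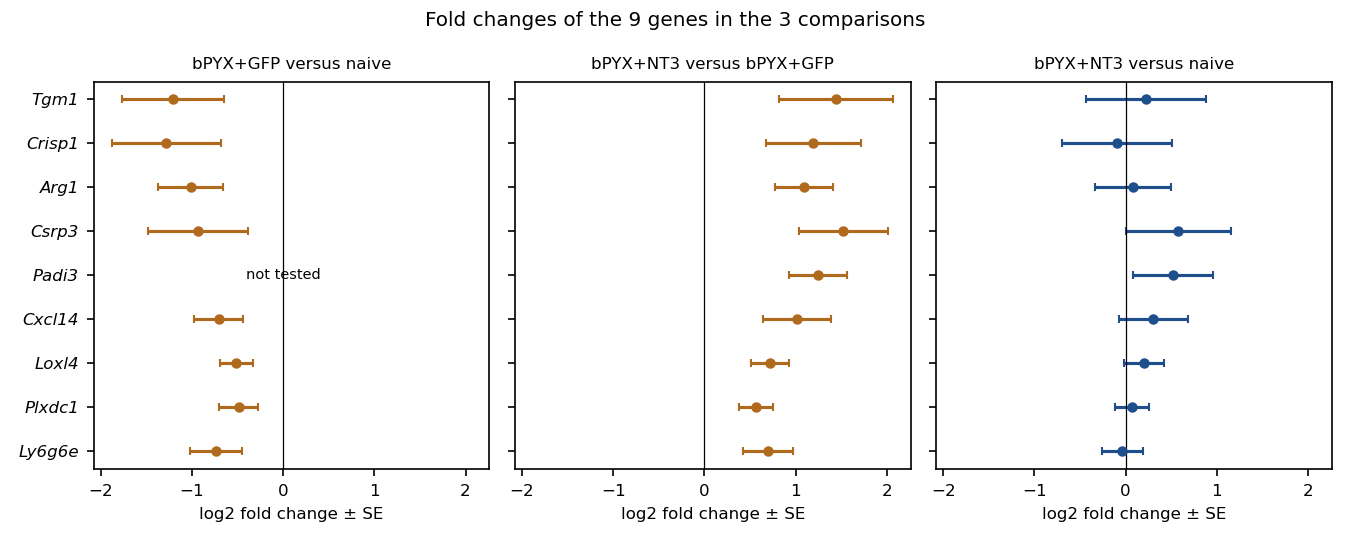
Log2 fold change (x axis, point) with its standard error (bar) of the 9 genes (y axis) in the 3 comparisons, from the edgeR fit of each pair of groups. The values of the first and second panels (orange) chose the genes and are a description, and those of the third panel (blue) lie between -0.09 and 0.58.

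The genes differed in how much they varied between rats of one group. The biological coefficient of variation, edgeR's estimate of the spread between replicates beyond counting error, was 75.6% for *Tgm1*, 73.1% for *Crisp1*, 68.0% for *Csrp3*, 44.2% for *Arg1*, 41.4% for *Padi3* and 36.4% for *Cxcl14*, with a median of 13.9% over the 11821 genes kept in the 18 rats. It was 21.3% for *Ly6g6e*, 19.9% for *Plxdc1* and 17.5% for *Loxl4*. Low counts raise this figure, so each was set against edgeR's trend for genes of the same level. *Crisp1*, *Tgm1* and *Csrp3* stood at 3.33, 2.87 and 2.86 times the trend, where the median gene stood at 0.827 times, whereas *Ly6g6e*, *Plxdc1* and *Loxl4* stood at 0.723, 0.739 and 0.603 times the trend. Since the genes were proposed as variable ones, these figures are a description.

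Within groups, 5 of the genes rose and fell together. For each rat, the log2 CPM (prior count 2) was taken minus the mean of its group. That removes the differences between group means on which the genes were chosen. The same rats set those means, so the choice may still have favoured genes raised in the same rats, which was not tested. Averaged over *Tgm1*, *Crisp1*, *Arg1*, *Csrp3* and *Padi3*, this deviation was -2.75 in naïve rat 49, the lowest, and 1.41 in naïve rat 42, the highest. In bPYX+GFP rats it ran from -0.95 in rat 5 to 0.58 in rat 21, and in bPYX+NT3 rats from -0.84 in rat 39 to 1.28 in rat 17. All 5 genes were above their group mean in rats 15, 42, 43, 45, 52, 11 and 17 and below it in rats 49, 5, 18, 23 and 39.

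**Figure D3:**
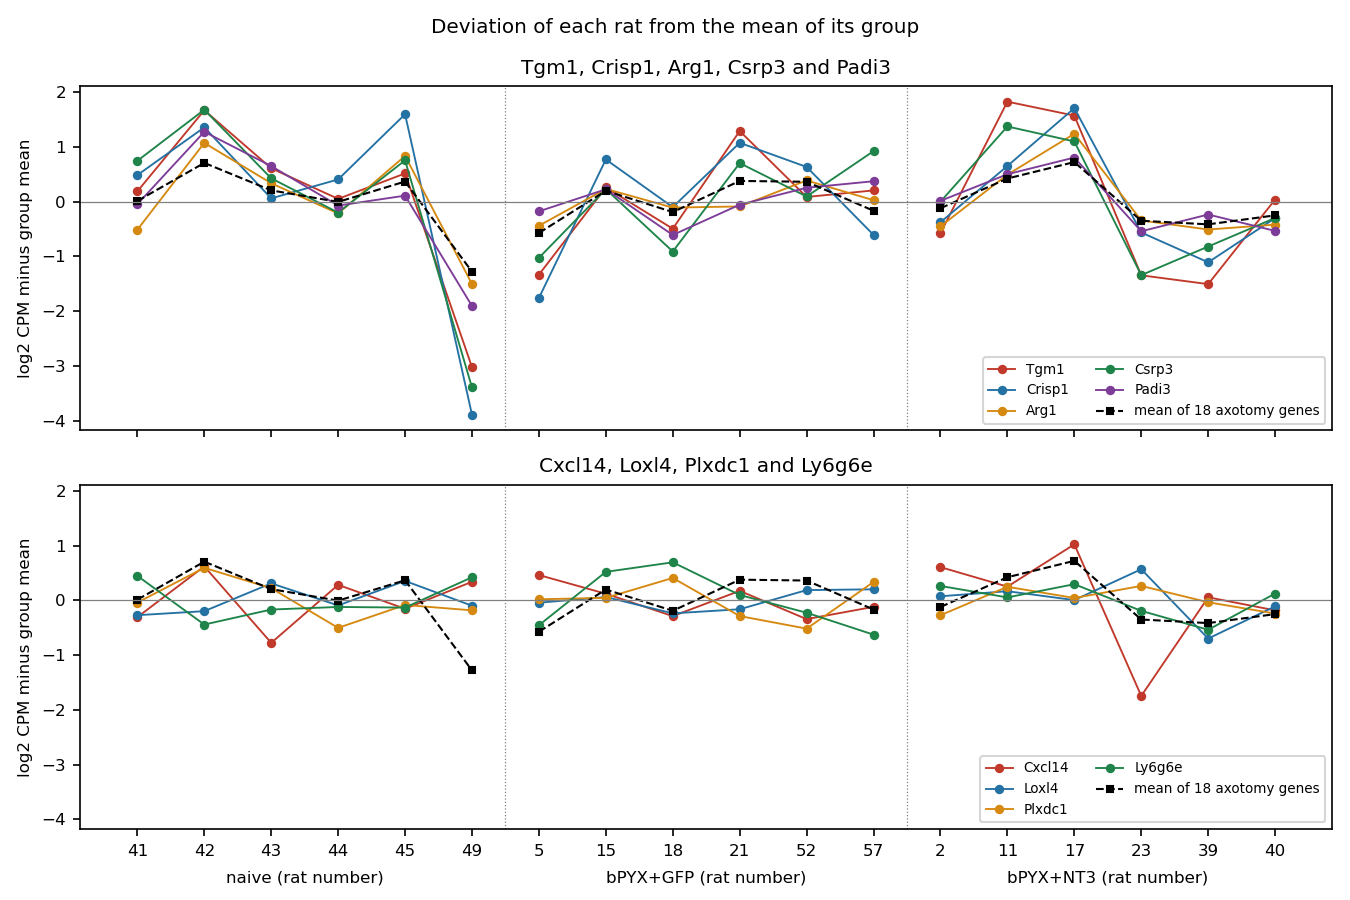
Deviation of each rat's log2 CPM from the mean of its group (y axis) for *Tgm1*, *Crisp1*, *Arg1*, *Csrp3* and *Padi3* (upper panel) and for *Cxcl14*, *Loxl4*, *Plxdc1* and *Ly6g6e* (lower panel), with the mean of 18 axotomy genes as a dashed line, against rat number and group (x axis). The upper lines dip together in rat 49 and peak together in rats 42, 11 and 17, and the lower lines cross each other.

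Over the 18 rats, 10 of the 36 pairs of genes correlated at an adjusted p under 0.05 (two-sided permutation test, 100000 resamples within groups, Benjamini-Hochberg over the 36 pairs), all with positive r. These were the 10 pairs that *Tgm1*, *Crisp1*, *Arg1*, *Csrp3* and *Padi3* make among themselves. Pearson's r was highest between *Tgm1* and *Csrp3* (r = 0.94, permutation p = 2e-05, adjusted p = 0.00072; Spearman's rho = 0.92, p = 6e-05) and between *Csrp3* and *Padi3* (r = 0.91, permutation p = 0.00011, adjusted p = 0.00099; rho = 0.88, p = 5e-05). It was lowest between *Crisp1* and *Padi3* (r = 0.78, permutation p = 0.00525, adjusted p = 0.0189; rho = 0.64, p = 0.00792). An r of at least 0.7 was held by the same 10 pairs, 27.8% of the 36, and by 11.4% of all 69862110 pairs of genes in the table. The mean r over the 36 pairs was 0.29, against 0.00 over all pairs of genes. Since the 5 genes vary together, they are not 5 independent observations of any pattern described below.

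The correlation was also computed within each group. Within the 6 naïve rats the r of the 10 pairs lay between 0.87 and 0.98, with an exact permutation p under 0.05 in 9 pairs. Within the 6 bPYX+NT3 rats it lay between 0.80 and 0.97, with such a p in 8 pairs. Within the 6 bPYX+GFP rats it lay between 0.22 and 0.85, with such a p in 2 pairs, *Tgm1* with *Crisp1* (exact p = 0.0347) and *Tgm1* with *Csrp3* (exact p = 0.0264). With 6 rats this test cannot give a p below 0.00139, and a difference in r between groups was not tested.

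After the 2 rats farthest from the median of the first gene were left out, r lay between 0.52 and 0.88 and 9 of the 10 pairs kept an unadjusted permutation p under 0.05. The relation of *Crisp1* with *Padi3* did not (r = 0.52 without rats 5 and 49, permutation p = 0.0624), and so rests on those rats. Without naïve rats 42 and 49 together, a choice made after the values were seen, 6 of the 10 pairs passed after adjustment, and the pairs of *Tgm1*, *Crisp1* and *Arg1* with one another were among them (r = 0.80, 0.70 and 0.76). Adjusting the values for the no-feature share of each rat kept all 10 pairs, with r between 0.76 and 0.96, and adjusting for library size kept all 10 with r between 0.75 and 0.92.

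*Cxcl14*, *Loxl4*, *Plxdc1* and *Ly6g6e* did not show that pattern. Their 26 pairs, 20 with the 5 genes above and 6 among themselves, had an r between -0.47 and 0.34 and an adjusted p of 0.403 or higher by the same permutation test. The most negative was *Cxcl14* with *Loxl4* (r = -0.47, permutation p = 0.162). Within single groups, 3 of these pairs had an unadjusted exact permutation p under 0.05. They were *Loxl4* with *Padi3* in bPYX+GFP rats (r = 0.90, exact p = 0.00833), which was higher than any r of the 10 pairs in that group, and *Ly6g6e* with *Arg1* (r = -0.87, exact p = 0.0264) and with *Padi3* (r = -0.79, exact p = 0.0375) in naïve rats. In rat 49 the mean deviation of these 4 genes was 0.12, where that of the other 5 was -2.75. A missed threshold in 18 rats does not show that these genes vary independently.

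The 5 genes varied with the axotomy genes. Of a list of 20 such genes, 18 had enough reads, and 77 of the 90 relations of the 5 genes with them passed an adjusted p under 0.05 (permutation test, adjusted over 162 relations), all positive, with r from 0.57 to 0.97. None of the 72 relations of the other 4 genes did (r from -0.25 to 0.45, lowest adjusted p 0.121). No share over all genes was computed for these single relations, and 11.4% of all pairs of genes had an r of at least 0.7. The relation with the mean of the 18 genes had r = 0.94 for *Tgm1*, 0.96 for *Crisp1*, 0.92 for *Arg1*, 0.91 for *Csrp3* and 0.88 for *Padi3*, with adjusted p between 0.00072 and 0.00540 over 108 relations with lists. Spearman's rho for the same relations was 0.93, 0.94, 0.84, 0.87 and 0.82. Without rats 17 and 49, the farthest from the median of that mean, r was between 0.67 and 0.89. Within single groups, r with that mean lay between 0.94 and 0.99 in naïve rats and between 0.92 and 0.98 in bPYX+NT3 rats. In bPYX+GFP rats it lay between 0.40 (*Padi3*) and 0.96 (*Crisp1*). Without naïve rats 42 and 49, 3 of the 108 relations with lists passed in place of 6, so not all 5 relations with that mean were kept. An r at least as high as that of *Padi3* was found in 27 (0.229%) of the 11803 genes outside the list, and the 5 genes themselves are among these.

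Among single axotomy genes, *Atf3* followed *Tgm1* most closely (r = 0.97). In naïve rats its normalised read count was 104 in rat 49 and 1207 in rat 42, in bPYX+GFP rats it was 225 in rat 5 and 717 in rat 21, and in bPYX+NT3 rats 368 in rat 39 and 1604 in rat 17. The rats lowest and highest for *Atf3* in each group were thus those at the ends of the mean of the 5 genes. *Sprr1a* followed *Crisp1* (r = 0.97), with no read in rat 49 and 59.0 normalised reads in rat 17. *Gal* followed *Csrp3* (r = 0.96), and *Sdc1*, the proteoglycan syndecan-1, followed *Arg1* (r = 0.94). *Ecel1*, an endopeptidase-like protein of injured neurons, followed *Csrp3* (r = 0.94) and *Padi3* (r = 0.91).

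*Gpr151* and *Nts* were the axotomy genes related to none of the 5 at the threshold, with r between -0.40 and -0.10 for *Gpr151* and between -0.09 and 0.25 for *Nts*. *Hspb1*, the small heat shock protein, passed with *Csrp3* (r = 0.79), *Tgm1* (r = 0.74) and *Padi3* (r = 0.71) and not with *Arg1* (r = 0.54, adjusted p = 0.0821) or *Crisp1* (r = 0.48, adjusted p = 0.0970), by the same permutation test. Of the 77 relations, 67 kept an unadjusted p under 0.05 without the 2 rats farthest from the median of the axotomy gene, and the 10 that did not were of *Tgm1*, *Csrp3* and *Padi3* with *Vip*, *Hspb1*, *Sox11*, *Gadd45a*, *Flrt3* or *Sprr1a*.

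**Figure D4:**
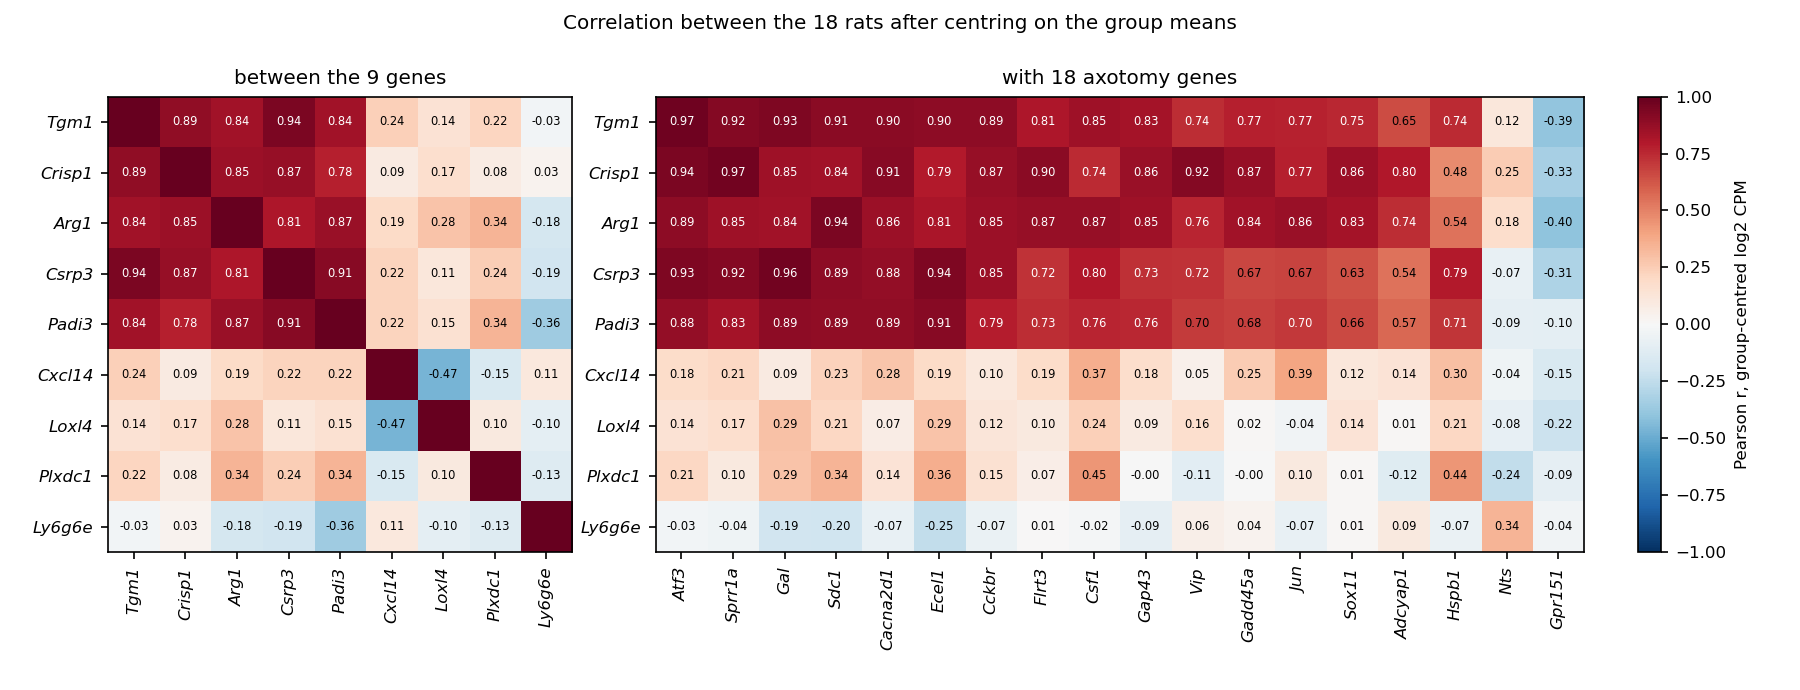
Pearson's r (colour and number) of group-centred log2 CPM over the 18 rats between the 9 genes (left) and between the 9 genes and 18 axotomy genes (right). *Tgm1*, *Crisp1*, *Arg1*, *Csrp3* and *Padi3* form a block with r from 0.78 to 0.94 that extends over most axotomy genes, and the other 4 genes lie outside it.

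The axotomy genes were also compared between groups. Their list was drawn up with earlier results of these data known. The study had already reported *Sprr1a* and *Sdc1* as lower in bPYX+GFP than in naïve rats and normalised with NT3, so the counts below are no independent check. Of the 18, 0 passed an unadjusted p under 0.05 in bPYX+GFP against naïve rats (3.25% of all genes did, edgeR quasi-likelihood test), with a median log2 fold change of -0.16 beside 0.01 over all genes, and 0 passed in bPYX+NT3 against naïve rats. The study's methods name edgeR but not the test behind its calls. In bPYX+GFP against naïve rats the log2 fold changes of *Sprr1a* (-1.11 ± 0.54) and *Sdc1* (-0.53 ± 0.28) were those the study printed. The calls thus differed and the sizes did not, and the reason was not tested. In bPYX+NT3 against bPYX+GFP rats 3 of 18 were higher at an unadjusted p under 0.05, where 1.08% of 11623 genes were. These were *Sprr1a* by a log2 fold change of 1.13 ± 0.46, *Ecel1* by 1.07 ± 0.38 and *Gal* by 0.97 ± 0.43, each with an adjusted p of 0.851. *Sdc1*, which the study called in this comparison too, was not among them, with the study's log2 fold change (0.52 ± 0.28). The summed level of the listed genes overlapped between groups, from 555 to 1246 CPM in naïve, 645 to 1005 in bPYX+GFP and 777 to 1403 in bPYX+NT3 rats.

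The genes nearest to each member over the 18 rats, named by r alone, repeated this division. After *Atf3*, *Tgm1* was nearest to NM_001108834 (r = 0.97), which has no symbol in the table used here, and *Ptprh*, a receptor tyrosine phosphatase (r = 0.97). *Csrp3* was nearest to *Ptprh* (r = 0.98), *Gal* and NM_001108834 (r = 0.96 for both). *Crisp1* was nearest to *Sprr1a*, *Atf3* and *Mmd* (r = 0.94 for both latter genes).

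*Arg1* was nearest to *Gzmb*, the protease granzyme B (r = 0.98), *Sdc1* and *Serpina3n*, a protease inhibitor (r = 0.94 for both). *Padi3* was nearest to *Hpd*, an enzyme of tyrosine breakdown (r = 0.92), *Ptprh* (r = 0.92) and *Ecel1*. Among 11820 genes ranked for each of the 5, the other 4 stood at rank 77 or nearer, and no other pair of members stood nearer than rank 697. These r are the highest among all 11820 genes and so are a description.

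The nearest genes of the remaining 4 were different ones. *Plxdc1* was nearest to *Loxl1*, another lysyl oxidase (r = 0.87), *Ggcx*, the vitamin K dependent carboxylase (r = 0.87), and *B4galt4*, a galactosyltransferase (r = 0.81). *Ly6g6e* was nearest to *Calcb*, a sensory neuropeptide of the CGRP family (r = 0.79), *Ccdc190* (r = 0.76) and *Polr3gl* (r = 0.72). *Cxcl14* was nearest to *Mettl26* (r = 0.76), *Ttc5* and *Tmem79* (r = 0.75 for both), and *Loxl4* to *Elf2* (NM_001033909, r = 0.75), *Fam32al1* (r = 0.69) and *Mtnr1a*, a melatonin receptor (r = 0.66).

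Among 11 lists of cell type markers, 1 of 99 relations with the 9 genes passed an adjusted p under 0.05. It was *Csrp3* with the keratinocyte list (r = -0.67, permutation p = 0.00182, adjusted p = 0.0328), of which *Perp* alone had enough reads, and r was -0.21 (adjusted p = 0.776) after adjustment for the no-feature share. The same adjustment gave *Plxdc1* a relation with the mean of 5 fibroblast markers (r = 0.79, permutation adjusted p = 0.00396, against r = 0.47 and 0.239 without it). The mean of 8 macrophage markers had r between 0.60 and 0.67 with the 5 genes that varied together, with adjusted p between 0.0557 and 0.0955. By rank, the macrophage relation passed for *Tgm1* (Spearman's rho = 0.71, permutation adjusted p = 0.0236) and *Csrp3* (rho = 0.74, permutation adjusted p = 0.0189), and without rats 17 and 52 the r of the 5 genes lay between 0.69 and 0.77. The summed macrophage level ranged from 107 to 202 CPM in naïve, 80.7 to 163 in bPYX+GFP and 99.0 to 218 in bPYX+NT3 rats, and its part in the shared variation was not tested. Adipocyte markers, which had r between -0.20 and 0.38 with the 9 genes, differed between groups: *Adipoq* was lower in bPYX+NT3 than in bPYX+GFP rats by a log2 fold change of -2.11 ± 0.73 and *Fabp4* by -2.05 ± 0.79 (unadjusted p under 0.05, adjusted p = 0.851, edgeR). The summed adipocyte level was 1.90 to 50.9 CPM in naïve, 2.64 to 80.2 in bPYX+GFP and 1.97 to 13.7 in bPYX+NT3 rats, and its part in the differences of the 9 genes was not tested. Fibroblast markers also differed: 3 of 5 were lower in bPYX+GFP than in naïve rats at the same threshold, where 2.52% of 11601 genes were. They were the collagens *Col1a1* by -0.49 ± 0.12 and *Col3a1* by -0.35 ± 0.09 and the matrix proteoglycan *Lum* by -0.23 ± 0.10 (adjusted p of 0.602 or higher, edgeR). *Col1a1* (-0.34 ± 0.12) and *Col3a1* (-0.37 ± 0.13) were lower in bPYX+NT3 than in naïve rats too, as was *Dcn* (-0.28 ± 0.13), and none of the 5 passed between the injured groups. The summed fibroblast level was 2215 to 2989 CPM in naïve, 2044 to 2646 in bPYX+GFP and 1627 to 2854 in bPYX+NT3 rats, and its part in the differences of the 9 genes was not tested. At the same threshold, 1 of 3 satellite glia markers was higher and 1 of 5 leptomeningeal markers lower in bPYX+NT3 than in bPYX+GFP rats. In bPYX+NT3 against naïve rats, 1 of 7 endothelial markers was higher and 1 of 5 Schwann cell markers lower. The shares of all genes, in either direction, were 1.73% and 6.01%, and the part of these cells was not tested.

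Relatives of the 9 genes mostly did not pass an unadjusted p under 0.05 (edgeR quasi-likelihood test). Among the other transglutaminases, *Tgm2*, the widely expressed one, was higher in bPYX+NT3 than in bPYX+GFP rats by a log2 fold change of 0.52 ± 0.23, and *Tgm4* was lower than in naïve rats in both injured groups (-0.29 ± 0.10 with GFP, -0.30 ± 0.10 with NT3). *Padi2*, the deiminase of the nervous system, was also lower in both (-0.43 ± 0.13 and -0.44 ± 0.13). *Ass1*, the argininosuccinate synthase of arginine synthesis, was higher in bPYX+NT3 than in naïve rats by 0.50 ± 0.15. *Crispld2*, a relative of *Crisp1*, was lower in the same comparison (-0.29 ± 0.11), as were both identifiers of the chemokine *Cxcl12* (-0.33 ± 0.14 and -0.35 ± 0.15). All of these had an adjusted p of 0.607 or higher. In the families of *Csrp3*, *Loxl4*, *Plxdc1* and *Ly6g6e*, no relative passed that threshold in any comparison.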

How the data were processed

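Per the study's methods and the labels, the authors aligned the 50 bp reads, sequenced in pairs, with TopHat2 to the Rnor_6.0 genome, and Picard was used against duplicates. HTSeq then gave the deposited counts, whole numbers per RefSeq identifier that are not normalized. Between 30.8% and 34.6% of reads fell on no feature, and these and reads at several places are in no gene's count. Rats were grouped by the rat and sample numbers heading the count table, whose sample numbers match the labels. Each rat's own deposited counts equal the table's column of that rat (18 of 18). The recorded titles of those files put 17 rats into a different group, which was tried as an alternative. All columns were used.

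Each pair of groups was fitted with edgeR 4.0.16 in R 4.3.3 (TMM, glmQLFit, glmQLFTest, no covariate) over genes for which 6 or more of the 12 rats had over 10 reads, and p was adjusted over all these genes (Benjamini-Hochberg). The 95% intervals use a t distribution. Log2 CPM with a prior count of 2 was centred on group means and correlated over 18 rats, with 100000 resamples within groups, in Python 3.11.15 with numpy 2.4.6 and scipy 1.17.1. The 9 genes, the gene lists and the tests were chosen with earlier results of these data known. The genes named are the 9 genes, the 3 nearest genes of each by r, and the axotomy genes, markers and relatives that passed a threshold or that a result turned on. Of 15075 identifiers, 14193 matched a RefSeq symbol. Tested on simulated data for bPYX+NT3 against naïve rats, the fit recovered 86.0% of 200 changed genes with 10 false calls among 11677 genes. The changed genes all had the same size of change. They were drawn from genes with a higher mean read number than *Padi3*, *Ly6g6e* and *Cxcl14*, and most genes vary less than *Tgm1*, *Crisp1* and *Csrp3*. The recovery therefore does not tell how well a change in the 9 genes would be found. Alternatives were the likelihood ratio test, DESeq2 1.42.0, other scalings, filters, measures and covariates, 1 fit over the 3 groups, the recorded titles, and leaving out each rat.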

Additional observations from a re-analysis of the deposited data

Results flagged for a closer look

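In each group of 6 rats, the gap between the most extreme rat and its neighbour, over the range of the group, was compared with Dixon's 95% critical value for the 9 genes, the 18 axotomy genes, the depth and the no-feature share. None of the 27 groups of the 9 genes passed it, though naïve rat 49 was the lowest for 5 of them. For genes the check used normalised read counts, a scale on which a rat with few reads can hardly stand apart. The check was not made on the log2 CPM used for the correlations. It therefore cannot tell whether rat 49 is extreme on that scale. Of the 87 groups in all, 9 held an extreme rat, and chance alone gives about 1 in 20. In bPYX+NT3 rats, rat 17 stood apart with 299 normalised reads of *Vip*, 183 of *Sox11*, 1592 of *Gadd45a*, 2623 of *Flrt3* and 1882 of *Adcyap1*, each above the other 5 rats, and it was also the highest of its group for *Crisp1*, *Arg1*, *Padi3*, *Cxcl14* and *Ly6g6e*. Rat 11 of the same group had 1049 normalised reads of *Hspb1*, above the others, and a no-feature share of 30.8%, below them. In bPYX+GFP rats, rat 57 had 605 normalised reads of *Hspb1*, above the others, and a no-feature share of 31.7%, below them.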

How the results depend on the processing

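Counts at an unadjusted p under 0.05 over all genes (edgeR) were 377 in bPYX+GFP against naïve rats, 201 in bPYX+NT3 against bPYX+GFP rats and 703 in bPYX+NT3 against naïve rats. Without a filter on low counts the second was 315. At an adjusted p under 0.05 the first was 0, but 13 by the likelihood ratio test and 16 by DESeq2. Leaving out 1 rat moved the first from 272 to 595 (595 without rat 57, with 0 to 1 after adjustment), the second from 95 (without rat 11) to 2291 (without rat 57) and the third from 365 (without rat 11) to 1387 (without rat 23).

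Under the recorded titles the first was 174 and the third 330 (1 after adjustment), and the mean r over the 36 pairs was 0.47 in place of 0.29. Those titles reuse the same replicate numbers in each group, and neither the labels nor the study give a pairing of rats by number. With the number tried as a block all the same, the counts were 91, 263 and 199. In the grouping used here the numbers only name rats, so no block was fitted. In bPYX+NT3 against naïve rats the titles turned *Tgm1* to -0.84, *Arg1* to -0.26, *Csrp3* to -0.98, *Cxcl14* to -0.62, *Plxdc1* to -0.17 and *Padi3* to -0.73, and with the block these were -0.45, -0.13, -0.71, -0.52, -0.18 and -0.62. None had p under 0.05. Why the titles differ from the table's heading was not tested. The directions the study reported in bPYX+GFP rats are those of the heading, and its log2 fold changes are nearly the same in size.

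In the same comparison, leaving out 1 rat gave -0.27 to 0.68 for *Tgm1*, -0.63 to 0.21 for *Crisp1*, -0.27 to 0.33 for *Arg1*, -0.012 to 0.22 for *Plxdc1* and -0.13 to 0.078 for *Ly6g6e*. *Ly6g6e* was 4.4e-05 with library size alone. In the comparisons that chose the 9 genes, no alternative except the titles turned a direction, but the genes past an unadjusted p under 0.05 in bPYX+GFP against naïve rats fell from 7 of 8 to 4 (1 fit over the 3 groups), 5 (library size alone) or 6 (DESeq2, or its size factors). Relations with lists past an adjusted p under 0.05 were 6 of 108, against 12 with library size alone, 3 without rats 42 and 49 (chosen after seeing the data) and 5 to 12 (12 without rat 52) with 1 rat left out. Pairs were 10 of 36, against 6 without rats 42 and 49 and 9 to 10 with 1 rat left out. The low counts, of 1 to 6 reads in the lowest rat for 6 of the 9 genes, limit the precision of every value.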
